A study of Mus musculus with 32 samples.

Results

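The genes described here are 5 CXC chemokine ligands (Cxcl14, Cxcl1, Cxcl2, Cxcl9 and Cxcl10) and 4 chemokine receptors (Cxcr4, Cx3cr1, Ccr1 and Ccr2), 9 of the 15967 genes named in experiment 1 and of the 16593 named in experiment 2. They were chosen by gene symbol, and every probe carrying such a symbol was taken, which gave 10 of the 24613 probes in experiment 1 and 10 of the 25697 probes in experiment 2. Cxcl14 had 2 probes in each experiment and the other 8 genes had 1.

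Chemokines are small secreted proteins that draw leukocytes towards their source by binding receptors coupled to G proteins. CXC chemokines fall into broad classes: Cxcl1 and Cxcl2 attract neutrophils through Cxcr2, Cxcl9 and Cxcl10 are induced by interferons and attract activated T cells through Cxcr3, and Cxcl14 is a divergent, homeostatic family member. In arterial lesions, monocytes enter through receptors such as Ccr2, Cx3cr1 and Ccr1, and macrophages are themselves a source of many chemokines.

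The cells were macrophages grown from the bone marrow of ApoE-/- mice of the DBA/2 and AKR strains, aged 16 weeks and kept on chow, with L-cell conditioned medium as the source of M-CSF. Loaded dishes received acetylated low density lipoprotein (AcLDL, a modified lipoprotein that fills macrophages with cholesterol) for 24 h, at 100 µg/ml for the female cells of experiment 1 and at 50 µg/ml for the male cells of experiment 2, and unloaded dishes received none. Each experiment had 4 groups of 4 Illumina arrays: loaded DBA/2, unloaded DBA/2, loaded AKR and unloaded AKR. Sex, dose, AcLDL batch and array version changed together between the experiments and cannot be told apart, and the sources call the 4 cultures of a group replicates without saying whether each had its own mouse, so p-values measure the spread between dishes.

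Values are log2 probe intensities, normalized in each experiment apart, and a difference of 1 on this scale is a doubling. The median of all values was 5.98 in experiment 1 and 4.29 in experiment 2. A probe entered the test when its highest group mean exceeded that median, and a gene was called at a limma adjusted p under 0.01 over all probes tested. All 6 macrophage markers on the arrays lay above the median in both experiments. Of the 32 arrays, 30 correlated best with their own group. The other 2 were AKR arrays of experiment 2: unloaded replicate 1 resembled loaded AKR cells (r = 0.986) more than its own group (r = 0.966), and loaded replicate 2 resembled unloaded AKR cells (r = 0.985) more than its own group (r = 0.968). The main results of experiment 2 that involve AKR cells are therefore given with all 16 arrays and without these 2 discordant arrays, which leaves 3 arrays in each AKR group. Other results of experiment 2 are from all 16 arrays unless stated.

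Cxcl14 was the member with the clearest pattern: in both experiments it was higher in DBA/2 than in AKR macrophages, and loading raised it in DBA/2 cells. The probe read for the gene, ILMN_2760800, is on both array versions. In experiment 1 its log2 values were 8.32, 8.52, 8.74 and 8.78 in loaded DBA/2 cells, against 6.91, 6.84, 6.93 and 6.92 in unloaded DBA/2 cells. They were 5.76, 5.82, 5.69 and 5.83 in loaded AKR cells, against 5.81, 5.71, 5.76 and 5.69 in unloaded AKR cells. The loaded DBA/2 arrays lay above all others and the unloaded DBA/2 arrays above all AKR arrays, whereas the AKR groups overlapped and every AKR array fell below the median of all probes. The mean was 8.59 ± 0.21 in loaded DBA/2 cells, 6.90 ± 0.04 in unloaded DBA/2 cells, 5.78 ± 0.06 in loaded AKR cells and 5.74 ± 0.05 in unloaded AKR cells (SD, n = 4 each).

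Loading changed Cxcl14 by 1.69 ± 0.08 (SE) in DBA/2 cells of experiment 1, a 3.23-fold rise (adjusted p = 3.61e-13), where 12.8% of the 9312 genes tested were called. The difference in AKR cells was 0.03 ± 0.08 (95% interval -0.13 to 0.20, adjusted p = 0.774), where 31.3% of genes were called, but all 8 AKR arrays lay below the median and a response at that level may not be measurable. The response in DBA/2 cells minus that in AKR cells was 1.66 ± 0.11 (adjusted p = 1.44e-10), and 15.8% of genes were called for such a difference, with the same limit on the AKR side. Between the strains, Cxcl14 was higher in DBA/2 than in AKR cells by 2.82 ± 0.08 after loading (adjusted p = 2.30e-19) and by 1.16 ± 0.08 before it (adjusted p = 1.51e-11), and no fold is given because the AKR values lay below the median. These calls held when all probes were tested. The other Cxcl14 probe had means of 8.28 ± 0.24 in loaded DBA/2 cells and 6.56 ± 0.09 in unloaded DBA/2 cells, and its loading difference was 1.72 ± 0.10. That probe too stayed below the median in all 8 AKR arrays, so both Cxcl14 probes entered the test through the DBA/2 groups alone.

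**Figure D1:**
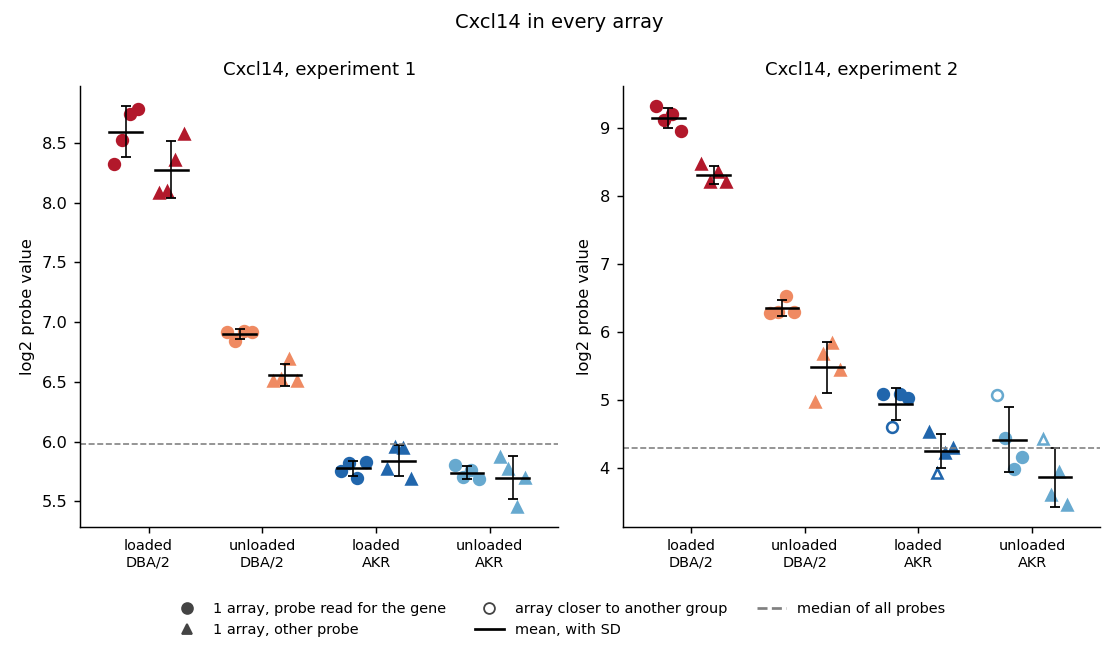
Log2 probe values of Cxcl14 in each array of experiment 1 (left) and experiment 2 (right), on separate axes. Circles are the probe read for the gene and triangles the other probe, open symbols are the 2 discordant AKR arrays, black lines are means with SD (n = 4), and the dashed line is the median of all probes. Loaded DBA/2 arrays sit highest in both panels, at 8.32 to 8.78 and at 8.96 to 9.33 for the circles, with no overlap with unloaded DBA/2 arrays.

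In experiment 2, Cxcl14 read 9.33, 9.12, 9.21 and 8.96 in loaded DBA/2 cells, against 6.29, 6.30, 6.53 and 6.29 in unloaded DBA/2 cells. It read 5.09, 4.60, 5.09 and 5.02 in loaded AKR cells, against 5.08, 4.44, 3.99 and 4.16 in unloaded AKR cells. The DBA/2 groups again stood apart from each other and from all AKR arrays. The AKR groups overlapped only through the 2 discordant arrays: the other loaded AKR arrays lay at 5.02 to 5.09 and the other unloaded AKR arrays at 3.99 to 4.44.

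The loading difference of Cxcl14 in DBA/2 cells of experiment 2 was 2.80 ± 0.18, a 6.96-fold rise (adjusted p = 1.47e-07), and 8.3% of the 9356 genes tested were called. In AKR cells it was 0.53 ± 0.18 with all arrays (adjusted p = 0.36), a comparison in which 0% of genes were called, and 0.87 ± 0.12 without the discordant arrays (adjusted p = 5.56e-05), where 19.7% were called. Thus a rise was also called in AKR cells once those arrays were left out, though the unloaded AKR mean of 4.20 then lay below the median of 4.29. The other Cxcl14 probe gave 0.68 ± 0.18 in the same comparison and just missed the threshold (adjusted p = 0.0108). The response in DBA/2 cells exceeded that in AKR cells by 2.27 ± 0.26 with all arrays (adjusted p = 1.15e-04; 0.994% of genes called) and by 1.93 ± 0.16 without the discordant arrays (adjusted p = 1.81e-06; 5.75% called). After loading, Cxcl14 was 18.4-fold higher in DBA/2 than in AKR cells with all arrays (4.20 ± 0.18 on the log2 scale) and 17.0-fold higher without the discordant ones (4.09 ± 0.11). In unloaded cells the difference was 1.94 ± 0.18 with all arrays (adjusted p = 7.48e-07) and 2.16 ± 0.11 without the discordant ones. Leaving out any single array kept all calls of Cxcl14 in both experiments.

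Among markers of other cell types, the stromal gene Dcn, which encodes the matrix proteoglycan decorin, moved with Cxcl14 in experiment 1. It lay at 8.19 to 8.52 in loaded DBA/2 cells, 7.11 to 7.60 in unloaded DBA/2 cells, 5.73 to 5.76 in loaded AKR cells and 5.52 to 5.82 in unloaded AKR cells. Only 3 of the 8 markers of the stromal and endothelial list exceeded the median in some group (Dcn, Pdgfra and Pdgfrb), and the collagen genes Col1a1, Col1a2 and Col3a1 stayed below it in all 4 groups. The mean of the 8 markers ran from 6.13 to 6.16 in loaded DBA/2 arrays, 5.93 to 5.99 in unloaded DBA/2 arrays, 5.85 to 5.86 in loaded AKR arrays and 5.76 to 5.84 in unloaded AKR arrays, and the part of such cells in the Cxcl14 difference of experiment 1 was not tested. Of 7 neutrophil markers, 2 exceeded the median in some group of experiment 1, and S100a8, a calcium-binding protein gene of myeloid cells, lay at 10.1 to 10.7 in loaded DBA/2 cells, 8.24 to 8.42 in unloaded DBA/2 cells, 8.87 to 9.04 in loaded AKR cells and 8.43 to 9.0 in unloaded AKR cells. The mean of the 7 ran from 6.44 to 6.64 in loaded DBA/2 arrays and 6.17 to 6.21 in unloaded DBA/2 arrays. It ran from 6.27 to 6.38 in loaded AKR arrays and 6.21 to 6.34 in unloaded AKR arrays. For S100a8 in experiment 2, every DBA/2 array lay below every AKR array. It read 7.71 to 8.01 in loaded DBA/2 cells and 7.67 to 7.91 in unloaded DBA/2 cells. Its AKR values were 8.77 to 10.05 after loading and 9.25 to 9.67 before it. Of the 2 neutrophil markers tested there, limma called 1 below its AKR level in each state and 0 above. The part of these markers in the Cxcl14 differences was not tested. In experiment 2 Dcn read 6.24, 4.27, 6.18 and 6.19 in loaded DBA/2 cells, against 6.03, 4.37, 4.23 and 6.24 in unloaded DBA/2 cells, and 4 of the 8 markers (Col1a1, Col3a1, Dcn and Cxcl12) passed the median in some group. In loaded DBA/2 replicate 2, where Dcn was below the median, Cxcl14 read 9.12, within the range of the other 3 arrays. Cxcl1 read 5.80 in that array, against 6.85, 7.10 and 7.48 in the others. The part of stromal cells in the values of experiment 2 was not tested. The macrophage markers moved with strain and loading as well. In experiment 1, 4 of the 6 were higher and 1 lower in loaded DBA/2 than in loaded AKR cells, 1 was higher and 2 lower in unloaded DBA/2 cells, and with loading 1 rose and 4 fell in AKR cells while 2 rose and 0 fell in DBA/2 cells. Their mean ran from 11.29 to 11.33 in loaded DBA/2 arrays, 11.10 to 11.19 in unloaded DBA/2 arrays, 10.82 to 10.90 in loaded AKR arrays and 11.25 to 11.35 in unloaded AKR arrays. In experiment 2 with all arrays, 2 were higher and 1 lower in loaded DBA/2 than in loaded AKR cells, and 0 higher and 1 lower in unloaded ones. With loading, 0 rose and 0 fell in AKR cells while 1 rose and 0 fell in DBA/2 cells. Without the discordant arrays, 4 were higher and 1 lower in loaded DBA/2 cells, and 3 higher and 1 lower in unloaded ones. In that fit 0 rose and 4 fell with loading in AKR cells, and 1 rose and 3 fell in DBA/2 cells. The mean of the macrophage markers over all arrays of experiment 2 ran from 10.21 to 10.35 in loaded DBA/2 arrays, 10.54 to 10.66 in unloaded DBA/2 arrays, 9.37 to 10.21 in loaded AKR arrays and 9.49 to 10.31 in unloaded AKR arrays. Of the 2 monocyte markers tested in experiment 2, 1 was higher and 0 lower in DBA/2 cells in both states. The 1 monocyte marker tested in experiment 1 was lower in unloaded DBA/2 than in unloaded AKR cells. It was not called between the loaded strains, and it fell with loading in AKR cells. Of the 2 osteoclast markers tested in each experiment, 1 was lower and 0 higher in DBA/2 cells in both states. In experiment 1, 1 of them rose with loading in each strain. Of the 2 B cell markers tested in experiment 1, 1 fell with loading in each strain. The 1 B cell marker tested in experiment 2 was higher in DBA/2 cells in both states and fell with loading there. The part of these markers in the member differences was not tested. In cultures measured as a whole, fewer cells of a type and less RNA per cell cannot be told apart.

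Cxcl1 and Cxcl2, neutrophil attractants encoded side by side on chromosome 5, varied together across the arrays. The 250 bases before the annotated start of each gene are shown because the pair moved together and both stretches hold the same match to the NF-kB element, the binding motif of the factor that drives many inflammatory genes. The sequences are from RefSeq (build GRCm38.p6, plus strand, 5′ to 3′, chr5:90890995-90891244 for Cxcl1 and chr5:90903649-90903898 for Cxcl2), and capitals mark the bases covered by the motif.
Cxcl1: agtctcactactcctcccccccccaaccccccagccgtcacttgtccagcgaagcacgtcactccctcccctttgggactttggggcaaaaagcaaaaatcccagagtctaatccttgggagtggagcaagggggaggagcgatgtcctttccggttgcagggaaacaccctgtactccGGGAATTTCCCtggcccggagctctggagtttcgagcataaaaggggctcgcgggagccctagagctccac
Cxcl2: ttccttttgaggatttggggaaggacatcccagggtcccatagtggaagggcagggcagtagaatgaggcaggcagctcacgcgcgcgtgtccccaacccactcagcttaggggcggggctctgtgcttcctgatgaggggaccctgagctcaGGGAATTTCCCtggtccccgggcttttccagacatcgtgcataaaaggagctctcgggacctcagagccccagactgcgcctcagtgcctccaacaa
The motif searched was GGGANNTTC, the core of the element, on both strands, and in each gene a match on the plus strand overlaps one on the minus strand, so that together they cover 11 bases. The plus strand match begins 71 bases before the start of Cxcl1 and 97 bases before that of Cxcl2. It lies in the longest stretch shared by the sequences, gggaatttccctgg, of 14 bases. Of 32817 mouse promoter windows of the same length, 3.23% held the motif on either strand, and among the other members Cxcl9 and Cxcl10 held it. The core of the interferon response element, GAAANNGAA, was present in 7.12% of the windows, and in those of Cxcl14, Cxcl9, Cxcl10 and Ccr2 among the members. Such a match describes the letters only.

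In experiment 1, both genes were far above the median of all probes and higher in DBA/2 cells. Cxcl1 read 11.69, 11.71, 11.56 and 11.64 in loaded DBA/2 cells, against 11.46, 11.68, 11.49 and 11.51 in unloaded DBA/2 cells. It read 10.51, 10.48, 10.48 and 10.42 in loaded AKR cells, against 10.57, 10.89, 10.49 and 10.81 in unloaded AKR cells. All DBA/2 arrays lay above all AKR arrays, and within each strain the loaded and unloaded groups overlapped. The difference between DBA/2 and AKR cells was 1.18 ± 0.08 after loading (2.26-fold, adjusted p = 6.51e-12; 29.7% of genes called) and 0.84 ± 0.08 before it (1.80-fold, adjusted p = 4.58e-09; 28.2% of genes called).

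Cxcl2 in experiment 1 read 9.40, 9.45, 9.11 and 9.16 in loaded DBA/2 cells, against 9.57, 9.79, 9.54 and 9.70 in unloaded DBA/2 cells. It read 8.31, 8.01, 8.06 and 8.13 in loaded AKR cells, against 8.33, 8.85, 8.19 and 8.37 in unloaded AKR cells. The DBA/2 arrays again lay above all AKR arrays, and in DBA/2 cells every loaded array was below every unloaded one. The difference between the strains was 1.15 ± 0.11 after loading (2.22-fold, adjusted p = 4.23e-09) and 1.21 ± 0.11 before it (2.32-fold, adjusted p = 2.41e-09). With Cxcl14, these made 3 of the 6 members tested that were higher in unloaded DBA/2 cells, a comparison in which 28.2% of all genes were called in either direction and 14.3% were higher.

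The loading differences of the pair in experiment 1 did not pass the threshold. Cxcl2 differed by -0.37 ± 0.11 in DBA/2 cells (adjusted p = 0.0162) and by -0.31 ± 0.11 in AKR cells (adjusted p = 0.0248). Without unloaded AKR replicate 2, the adjusted p for Cxcl2 in DBA/2 cells was 0.0026. Cxcl1 differed by 0.11 ± 0.08 in DBA/2 cells (adjusted p = 0.339) and by -0.22 ± 0.08 in AKR cells (adjusted p = 0.0287). Without unloaded AKR replicate 3, the AKR differences of both genes were called, at -0.29 for Cxcl1 (adjusted p = 0.00557) and at -0.39 for Cxcl2 (adjusted p = 0.00731). With all arrays, 0 of the 6 members tested were called by limma for loading in AKR cells, and 3 had an unadjusted p under 0.05 (Cxcl1, Cxcl2 and Ccr1), while 31.3% of all 9312 genes were called and 4553 had an unadjusted p under 0.05.

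**Figure D2:**
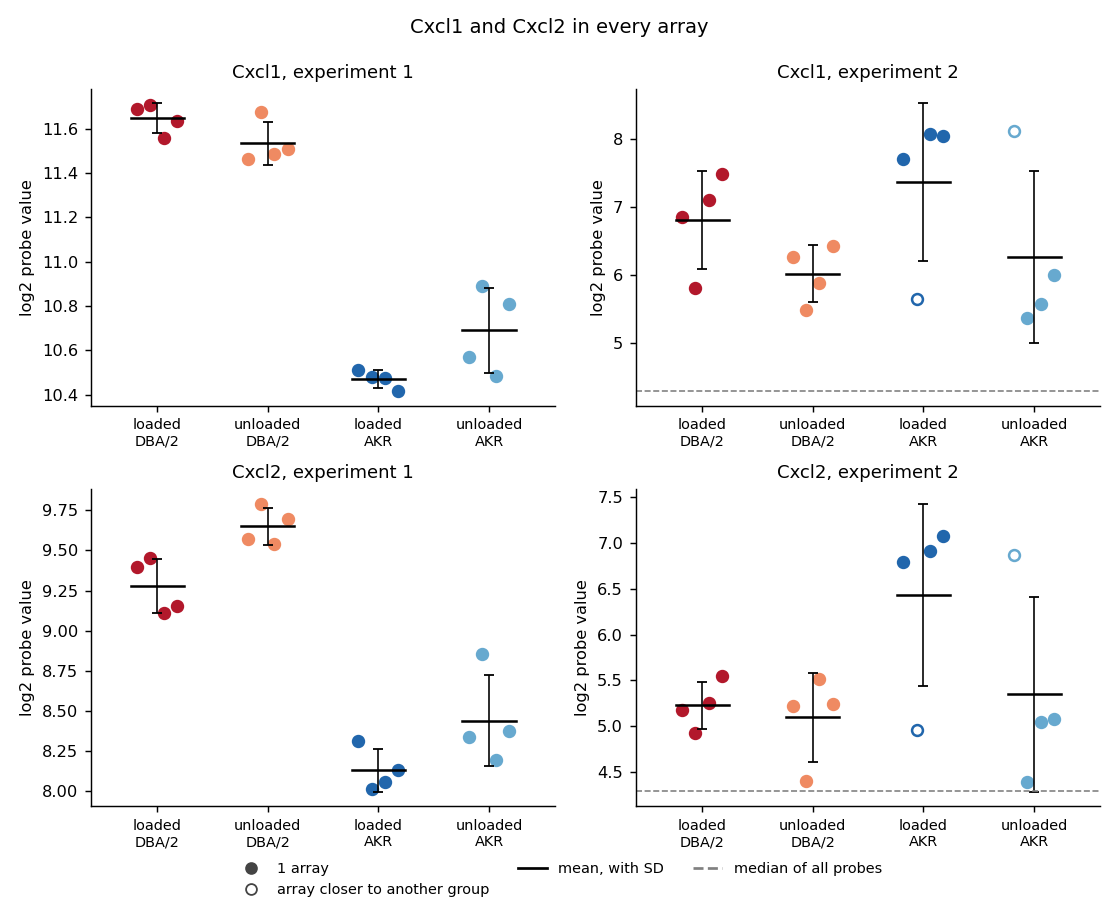
Log2 probe values of Cxcl1 (top) and Cxcl2 (bottom) in each array of experiment 1 (left) and experiment 2 (right), on separate axes. Points are arrays, open points the 2 discordant AKR arrays, black lines means with SD (n = 4), and the dashed line, drawn where it falls in range, the median of all probes. In experiment 1 all DBA/2 arrays lie above all AKR arrays, and in experiment 2 the highest values of both genes are in 3 loaded AKR arrays and the open unloaded AKR array.

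Experiment 2, which used another probe of each gene, showed a different picture. Cxcl1 read 6.85, 5.80, 7.10 and 7.48 in loaded DBA/2 cells, against 6.27, 5.49, 5.89 and 6.42 in unloaded DBA/2 cells. It read 7.71, 5.65, 8.07 and 8.05 in loaded AKR cells, against 8.12, 5.37, 5.57 and 6.01 in unloaded AKR cells. Replicate 2 was the lowest array of all 4 groups, and the AKR groups overlapped through the discordant arrays alone.

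Cxcl2 in experiment 2 read 5.18, 4.93, 5.25 and 5.55 in loaded DBA/2 cells, against 5.22, 4.40, 5.52 and 5.24 in unloaded DBA/2 cells. It read 6.80, 4.95, 6.91 and 7.08 in loaded AKR cells, against 6.87, 4.39, 5.05 and 5.08 in unloaded AKR cells. Replicate 2 was again the lowest array of all 4 groups. The DBA/2 groups overlapped, and 3 loaded AKR arrays together with 1 unloaded AKR array stood above the rest.

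With all 16 arrays of experiment 2, neither gene was called in any comparison. The loading difference of Cxcl1 in AKR cells was 1.10 ± 0.58 (adjusted p = 0.397) and that of Cxcl2 was 1.09 ± 0.47 (adjusted p = 0.36). In that comparison 0 of the 7 members tested were called by limma and 2 (Cxcl14 and Cxcl2) had an unadjusted p under 0.05, while among all 9356 genes 0 were called and 1338 had an unadjusted p under 0.05. With weights estimated for each array, 3 members were called in it (Cxcl14, Cxcl1 and Cxcl2).

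Without the discordant arrays, loading raised Cxcl1 by 2.29 ± 0.33 in AKR cells (4.90-fold, adjusted p = 6.16e-05) and Cxcl2 by 2.09 ± 0.24 (4.26-fold, adjusted p = 7.73e-06). With Cxcl14 these were 3 of the 7 members tested, beside 19.7% of all genes, or 10.1% that were higher. In DBA/2 cells the loading difference of Cxcl1 was 0.79 ± 0.28 in the same fit (adjusted p = 0.0495) and that of Cxcl2 was 0.13 ± 0.21 (95% interval -0.31 to 0.58, adjusted p = 0.691). The response of Cxcl2 in DBA/2 cells minus that in AKR cells was -1.96 ± 0.32 (adjusted p = 9.02e-04), and for Cxcl1 it was -1.50 ± 0.43 (adjusted p = 0.0365). After loading, Cxcl2 was lower in DBA/2 than in AKR cells by 3.25-fold (-1.70 ± 0.23, adjusted p = 2.86e-05; 20.6% of genes called), and Cxcl1 by 2.19-fold (-1.13 ± 0.31, adjusted p = 0.0104), which missed the threshold. Leaving out loaded AKR replicate 2 alone was enough for the strain call of Cxcl2 after loading (adjusted p = 0.00546). In unloaded cells the difference between DBA/2 and AKR was 0.37 ± 0.31 for Cxcl1 and 0.26 ± 0.23 for Cxcl2, neither of them called.

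Cxcl9 and Cxcl10, the interferon-inducible T cell attractants, were dim. In experiment 1 all 16 arrays of Cxcl10 and 15 of 16 of Cxcl9 fell below the median of all probes, at 5.41 to 5.84 for Cxcl10 and 5.60 to 5.99 for Cxcl9, and neither gene was tested there. No detection p-values were used here, so a value below the median cannot be called undetected. Both genes passed the filter in experiment 2.

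Cxcl9 in experiment 2 read 4.23, 4.51, 4.64 and 4.40 in loaded DBA/2 cells, against 5.06, 5.29, 4.97 and 5.19 in unloaded DBA/2 cells. It read 4.83, 4.83, 4.75 and 4.81 in loaded AKR cells, against 4.79, 5.09, 4.60 and 4.84 in unloaded AKR cells. The loaded DBA/2 arrays were below all unloaded DBA/2 arrays and below all loaded AKR arrays, whereas the AKR groups overlapped. Loading lowered Cxcl9 in DBA/2 cells by 1.61-fold (-0.68 ± 0.11, adjusted p = 6.98e-04), and the AKR difference was -0.02 ± 0.11 with all arrays and -0.04 ± 0.13 without the discordant ones. The responses of the strains differed by -0.66 ± 0.16, which did not pass the threshold (adjusted p = 0.0376), and by -0.64 ± 0.18 without the discordant arrays (adjusted p = 0.0282). Together with Cxcl14, Cxcl9 made 2 of 7 members called for loading in DBA/2 cells of experiment 2, beside 8.3% of all genes, and the same 2 were called without the discordant arrays, beside 18.9%.

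Cxcl10 in experiment 2 read 4.79, 4.10, 4.86 and 4.57 in loaded DBA/2 cells, against 4.74, 5.29, 5.07 and 4.80 in unloaded DBA/2 cells. It read 5.06, 4.71, 4.996 and 4.86 in loaded AKR cells, against 4.93, 4.88, 4.72 and 4.79 in unloaded AKR cells. All 4 groups overlapped, and no comparison of Cxcl10 was called. Its loading difference in DBA/2 cells was -0.39 ± 0.16 (95% interval -0.73 to -0.06, adjusted p = 0.0941).

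**Figure D3:**
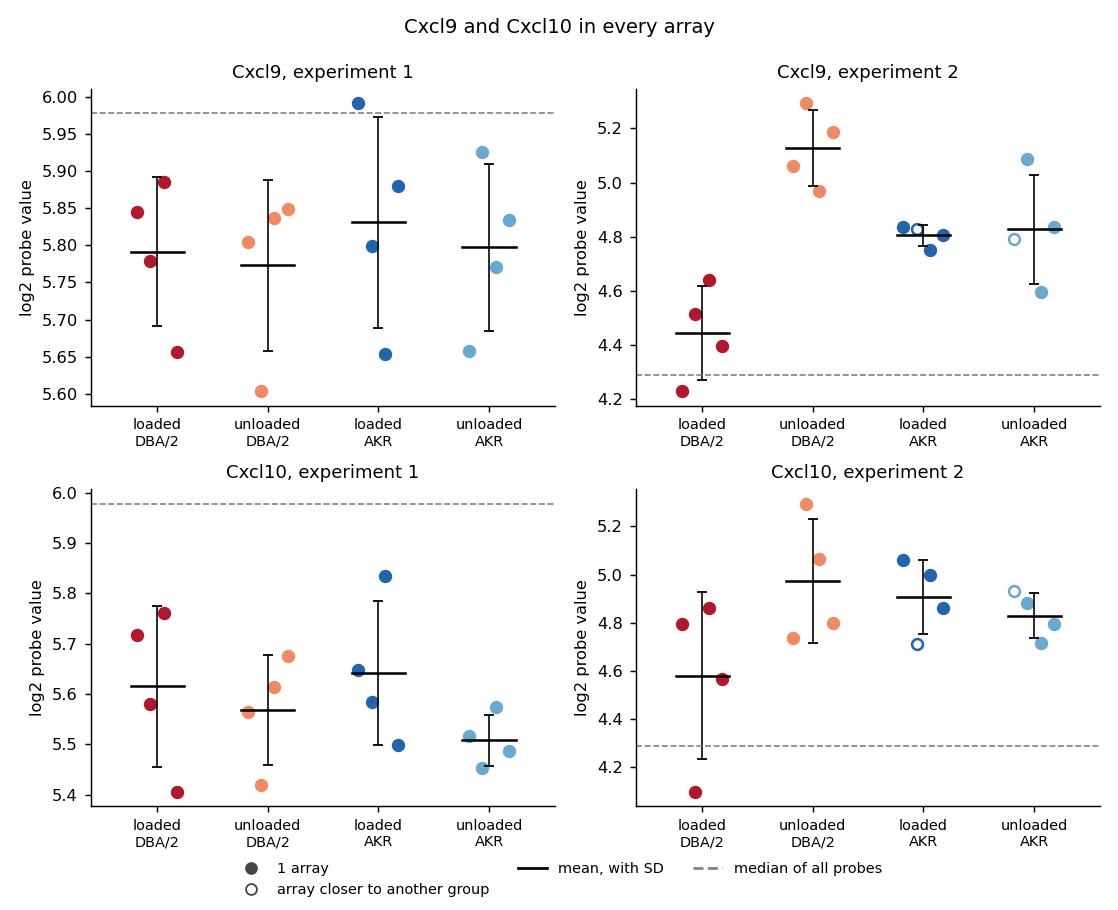
Log2 probe values of Cxcl9 (top) and Cxcl10 (bottom) in each array of experiment 1 (left) and experiment 2 (right), on separate axes. Points are arrays, open points the 2 discordant AKR arrays, black lines means with SD (n = 4), and the dashed line the median of all probes. In experiment 1 nearly all points lie below the median, and in experiment 2 the loaded DBA/2 arrays of Cxcl9, at 4.23 to 4.64, lie below its unloaded DBA/2 arrays, at 4.97 to 5.29.

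Cxcr4, the receptor for Cxcl12 that holds leukocytes in the bone marrow, was well above the median in every array. In experiment 1 it read 11.33, 11.16, 11.28 and 11.35 in loaded DBA/2 cells, against 11.52, 11.66, 11.43 and 11.49 in unloaded DBA/2 cells. It read 11.35, 11.44, 11.22 and 11.41 in loaded AKR cells, against 11.37, 11.54, 10.98 and 11.06 in unloaded AKR cells. The loaded DBA/2 arrays were below the unloaded DBA/2 arrays, and the AKR groups overlapped. No difference passed the threshold: it was 0.29 ± 0.09 between unloaded DBA/2 and AKR cells (adjusted p = 0.0169) and -0.24 ± 0.09 with loading in DBA/2 cells (adjusted p = 0.0709). The strain difference was called without unloaded AKR replicate 2, at 0.39 (adjusted p = 0.00109), with array weights, at 0.33 (adjusted p = 0.00551), with a replicate block (adjusted p = 0.00961) and with trended robust eBayes (adjusted p = 0.00966).

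In experiment 2, with another probe, Cxcr4 read 9.54, 9.49, 9.32 and 9.30 in loaded DBA/2 cells, against 9.26, 9.47, 8.80 and 8.97 in unloaded DBA/2 cells. It read 9.47, 9.86, 9.44 and 9.48 in loaded AKR cells, against 9.83, 9.91, 9.63 and 9.83 in unloaded AKR cells. Every unloaded DBA/2 array was below every unloaded AKR array, the opposite side from the means of experiment 1. The difference between unloaded DBA/2 and AKR cells was -0.67 ± 0.14, which is 1.59-fold lower in DBA/2 cells (adjusted p = 0.00231; 10.6% of genes called), and -0.66 ± 0.14 without the discordant arrays (adjusted p = 0.00199; 15% of genes called). It ranged from -0.79 to -0.56 when single arrays were left out, and was not called without unloaded DBA/2 replicate 3 or replicate 4 (adjusted p up to 0.0109). After loading the difference was -0.15 ± 0.14 (95% interval -0.44 to 0.14, adjusted p = 0.5; 12.8% of genes called). The loading difference of Cxcr4 was 0.29 ± 0.14 in DBA/2 cells and -0.24 ± 0.14 in AKR cells, and the test of the difference between these gave 0.52 ± 0.20 (adjusted p = 0.191).

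Cxcl12, the ligand of Cxcr4, was below the median in all 4 group means of experiment 1. In experiment 2 it read 5.63, 4.13, 5.76 and 5.44 in loaded DBA/2 cells, against 6.53, 4.07, 3.75 and 5.59 in unloaded DBA/2 cells. Its high and low arrays in the DBA/2 groups were those of Dcn.

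Cx3cr1, the fractalkine receptor of resident and patrolling monocytes, lay at the median. In experiment 1 it read 5.97, 5.98, 6.25 and 6.14 in loaded DBA/2 cells, against 5.94, 5.84, 5.88 and 5.90 in unloaded DBA/2 cells. It read 5.82, 5.86, 5.78 and 5.72 in loaded AKR cells, against 5.94, 6.02, 5.77 and 5.77 in unloaded AKR cells. Only the loaded DBA/2 mean passed the median, so the probe was tested because of that group. All loaded DBA/2 arrays were above all loaded AKR arrays, and the difference of 0.29 ± 0.07 (1.22-fold) was called (adjusted p = 0.00257), as for 29.7% of all genes. The call was lost without loaded DBA/2 replicate 3, loaded DBA/2 replicate 4 or loaded AKR replicate 4, each in turn (adjusted p up to 0.0162). In experiment 2 the 16 values of Cx3cr1 lay between 3.74 and 4.60 with all groups overlapping, and no comparison was called.

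Ccr1, a receptor for inflammatory CC chemokines, passed the median in experiment 1 and not in experiment 2. In experiment 1 it read 6.17, 6.26, 6.10 and 6.14 in loaded DBA/2 cells, against 6.20, 6.40, 6.29 and 6.22 in unloaded DBA/2 cells. It read 6.38, 6.21, 6.11 and 6.35 in loaded AKR cells, against 6.06, 6.01, 6.14 and 6.12 in unloaded AKR cells. The whole range was 6.01 to 6.40, and no comparison was called: unloaded DBA/2 cells differed from unloaded AKR cells by 0.19 ± 0.07 (adjusted p = 0.0305). In experiment 2 the 16 values of Ccr1 lay between 3.22 and 4.08, all below the median.

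Ccr2, the Ccl2 receptor that marks inflammatory monocytes, was below the median in all 32 arrays. Its values lay between 5.39 and 5.84 in experiment 1 and between 3.15 and 4.19 in experiment 2, with overlap between the groups within each experiment, and it was not tested.

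**Figure D4:**
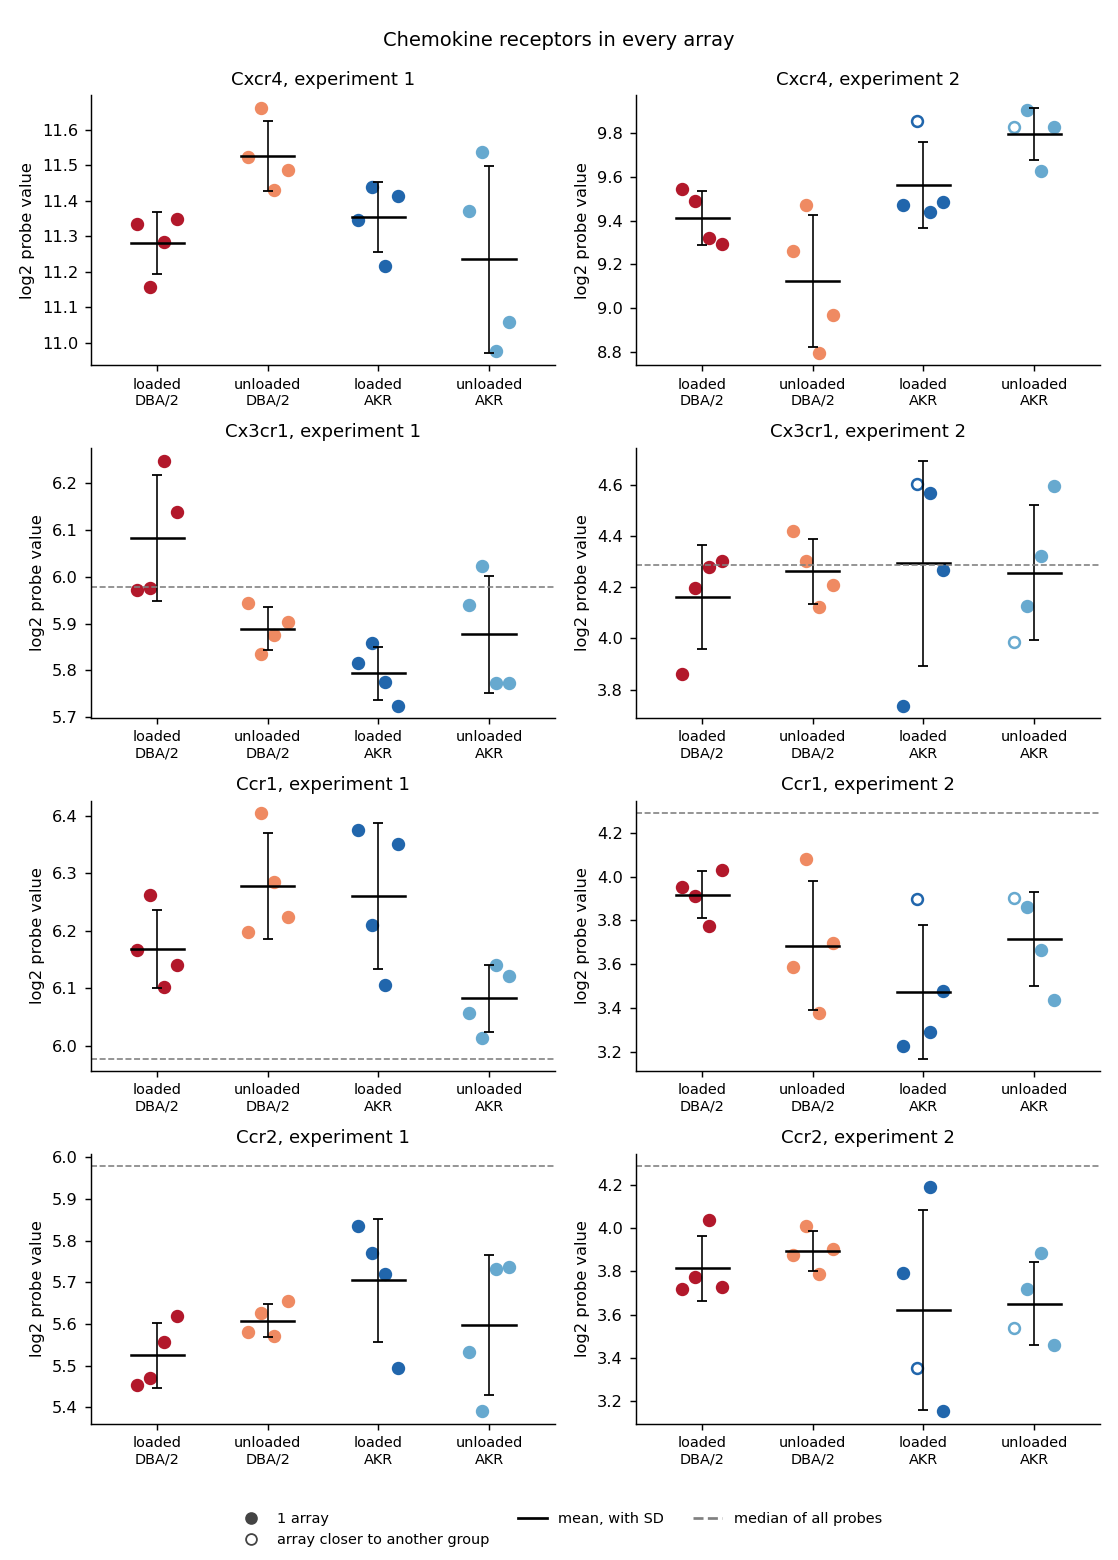
Log2 probe values of Cxcr4, Cx3cr1, Ccr1 and Ccr2 (top to bottom) in each array of experiment 1 (left) and experiment 2 (right), each on its own axis. Points are arrays, open points the 2 discordant AKR arrays, black lines means with SD (n = 4), and the dashed line, drawn where it falls in range, the median of all probes. Unloaded DBA/2 arrays of Cxcr4 sit at 11.43 to 11.66 in experiment 1 and at 8.80 to 9.47 in experiment 2, against 10.98 to 11.54 and 9.63 to 9.91 in unloaded AKR arrays.

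Seen over all members, loading in experiment 1 gave calls for 1 of the 6 tested in DBA/2 cells (Cxcl14), beside 12.8% of all genes, and for 0 in AKR cells, beside 31.3%. In experiment 2, 2 of 7 were called in DBA/2 cells with or without the discordant arrays (Cxcl14 higher and Cxcl9 lower), beside 8.3% and 18.9% of all genes. In AKR cells the count was 0 with all arrays, beside 0% of all genes, and 3 without the discordant ones, beside 19.7%. The comparisons share groups, so they are not independent of each other.

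**Figure D5:**
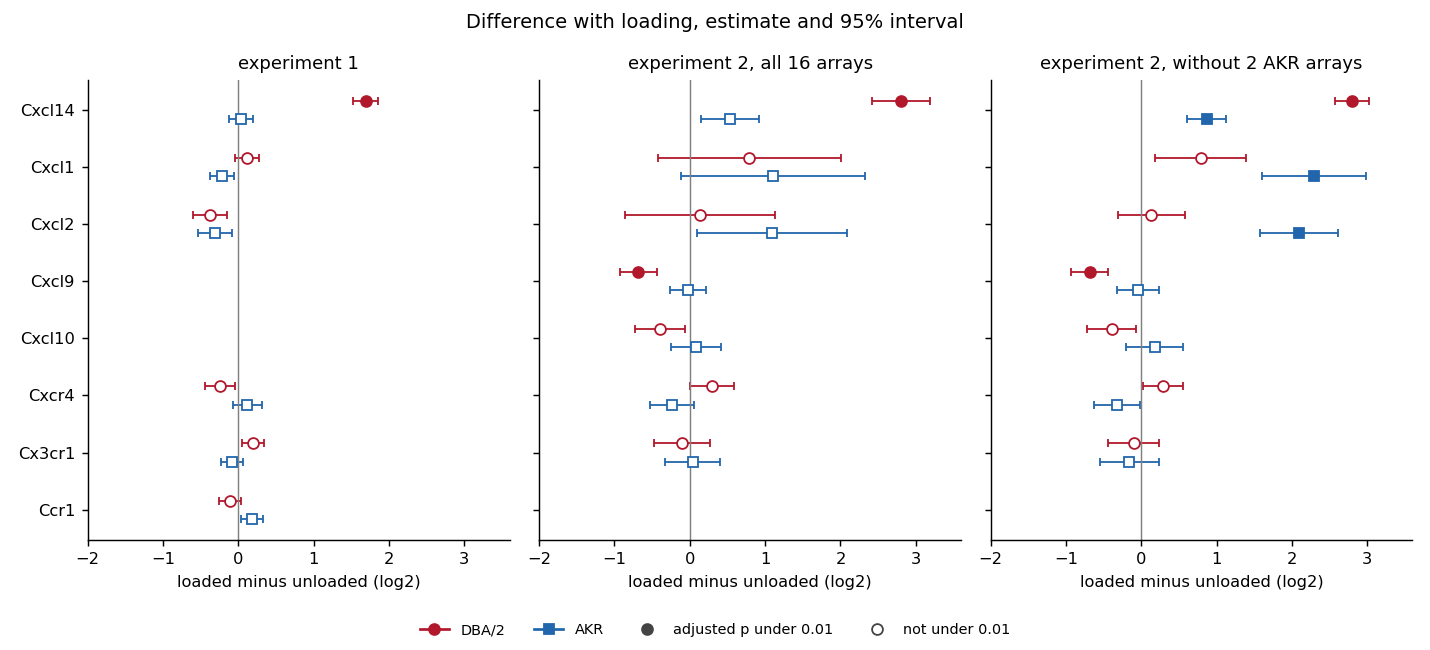
Loaded minus unloaded log2 difference of each member tested, with its 95% interval, in experiment 1, in experiment 2 with all 16 arrays and in experiment 2 without the 2 discordant AKR arrays. Red circles are DBA/2 and blue squares AKR cells, filled where the limma adjusted p was under 0.01. Cxcl14 in DBA/2 cells is filled in all 3 panels, at 1.69, 2.80 and 2.80, and the AKR values of Cxcl1 and Cxcl2 are filled only in the last, at 2.29 and 2.09.

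Further genes of the chemokine system were counted from lists written down by role, and those called with a difference of at least 1 are named. In experiment 1, 15.1% of all genes were higher and 14.6% lower in loaded DBA/2 against AKR cells, 14.3% higher and 13.9% lower in unloaded ones, 6.42% rose and 6.4% fell with loading in DBA/2 cells, and 16.2% rose and 15.1% fell in AKR cells. In experiment 2 with all arrays, 6.79% were higher and 6.04% lower in loaded DBA/2 against AKR cells, and 4.96% higher and 5.69% lower in unloaded ones. With loading, 4.56% rose and 3.74% fell in DBA/2 cells, and 0% were called in AKR cells. Without the discordant arrays, 10.3% rose and 8.63% fell with loading in DBA/2 cells and 10.1% rose and 9.63% fell in AKR cells. The counts of the lists stand against these shares, and nothing is read as particular to a list. Over all genes tested the median difference lay between -0.01 and 0.03 in every comparison with all arrays. Of 13 CC chemokine ligands on the arrays, 11 were tested in experiment 1. In loaded DBA/2 against AKR cells 0 were higher and 6 lower (list median -0.64; 14.6% of all genes lower), and in unloaded cells 2 were higher and 7 lower (list median -0.62; 13.9% of all genes lower). Ccl5, a T cell and monocyte attractant, differed by -4.34 ± 0.09 after loading and by -4.53 ± 0.09 before it. Ccl7, a monocyte attractant, differed by -2.01 ± 0.09 after loading and by -1.76 ± 0.09 before it, and its relative Ccl12 by -1.06 ± 0.08 before it. With loading, 1 CC ligand rose and 5 fell in DBA/2 cells (list median -0.08), and 4 rose and 5 fell in AKR cells (list median -0.05; 31.3% of all genes called), where Ccl12 differed by -1.06 ± 0.08. The responses of Ccl3 and Ccl4, macrophage inflammatory proteins, were lower in DBA/2 than in AKR cells, with differences of -1.19 ± 0.14 for Ccl3 and -1.57 ± 0.14 for Ccl4.

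In experiment 2, 10 CC ligands were tested, and in unloaded DBA/2 against AKR cells 2 were higher and 0 lower (list median 0.09; 4.96% of all genes higher). Ccl7 was among the higher, at 2.02 ± 0.20 (adjusted p = 1.10e-06), while in experiment 1 it was among the lower. In loaded cells 0 were higher and 0 lower with all arrays. Thus Ccl5, lower in DBA/2 cells of experiment 1, was not called lower in either state. With loading, 0 rose and 3 fell in DBA/2 cells (list median -0.34; 3.74% of all genes fell), Ccl12 by a difference of -4.24 ± 0.49 and Ccl7 by one of -2.54 ± 0.20. The response of Ccl7 in DBA/2 cells minus that in AKR cells was -2.65 ± 0.28 (adjusted p = 7.82e-05). In AKR cells 0 CC ligands were called for loading with all arrays, beside 0% of all genes.

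Without the discordant arrays, 3 CC ligands rose and 3 fell with loading in AKR cells (list median 0.21), with differences of 1.44 ± 0.15 for Ccl3, 1.12 ± 0.14 for Ccl4, -1.47 ± 0.21 for Ccl5 and -2.16 ± 0.13 for Ccl12. In DBA/2 cells 3 rose and 4 fell, with Ccl3 at 1.24 ± 0.13. Between the strains, 4 were higher and 0 lower in unloaded DBA/2 cells (7.01% of all genes higher), and 0 higher and 2 lower in loaded ones (10.3% of all genes lower). The monocyte attractant Ccl2 was higher in unloaded DBA/2 than in unloaded AKR cells by 1.03 ± 0.14. Ccl12 was higher by 1.02 ± 0.12 in unloaded DBA/2 cells, where it was lower in experiment 1, and differed by -1.06 ± 0.12 after loading. The responses of Ccl2 and Ccl12 were lower in DBA/2 cells, at -1.11 ± 0.20 for Ccl2 and -2.08 ± 0.17 for Ccl12.

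Of 12 other CXC, CX3C and XC ligands, 6 were tested in each experiment. In experiment 1, 5 were higher and 0 lower in loaded DBA/2 against AKR cells (list median 0.46; 15.1% of all genes higher), and 2 were higher and 1 lower in unloaded cells. The lower one was Cxcl13, which attracts B lymphocytes, at -1.30 ± 0.12. With loading, Cxcl13 differed by -2.12 ± 0.12 in AKR cells, and its response was higher in DBA/2 cells by 1.74 ± 0.17. In experiment 2 with all arrays, 1 was called in loaded and 0 in unloaded DBA/2 against AKR cells. Without the discordant arrays, Cxcl16, which is both a chemokine and a scavenger receptor for oxidized lipoprotein, fell by 1.23 ± 0.09 with loading in DBA/2 cells and fell by 1.43 ± 0.10 in AKR cells. After loading it was higher in DBA/2 than in AKR cells by 1.11 ± 0.10, and Ppbp, a platelet chemokine gene, by 1.09 ± 0.15.

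Among other chemokine receptors, 3 of 17 on the array were tested in experiment 1 and 5 of 19 in experiment 2. The atypical receptor Ccrl2 fell by 1.34 ± 0.10 with loading in DBA/2 cells of experiment 1. In experiment 2 its difference between loaded DBA/2 and loaded AKR cells was -1.15 ± 0.29 (adjusted p = 0.00935), and without the discordant arrays it was -1.46 ± 0.15, with a rise of 1.21 ± 0.17 on loading in AKR cells.

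Of 25 genes of receptor signalling and desensitisation tested in experiment 1, 1 rose and 1 fell with loading in DBA/2 cells (12.8% of all genes called), and 2 rose and 6 fell in AKR cells (31.3% of all genes called). Fgr, a Src family kinase of myeloid cells, was higher in DBA/2 than in AKR cells of experiment 1 by 1.15 ± 0.08 after loading and 1.13 ± 0.08 before it. In experiment 2 it was higher by 1.11 ± 0.12 after loading and 1.58 ± 0.12 before it. Rgs1, which shortens G protein signals, rose by 1.90 ± 0.31 with loading in DBA/2 cells of experiment 2, and by 1.48 ± 0.14 in AKR cells without the discordant arrays, where the Rac activator gene Prex1 fell by 1.05 ± 0.11.

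Of 17 tested inducers and repressors of chemokine genes, 0 rose and 9 fell with loading in DBA/2 cells of experiment 1 (list median -0.24; 6.4% of all genes fell), and 1 rose and 10 fell in AKR cells (list median -0.31; 15.1% of all genes fell). Il1b, the gene of an interleukin that induces Cxcl1 and Cxcl2, differed by -1.71 ± 0.11 in DBA/2 cells and by -2.14 ± 0.11 in AKR cells. The anti-inflammatory Il10 differed by -1.32 ± 0.11 in DBA/2 cells and by -1.67 ± 0.11 in AKR cells. In AKR cells Irf7, a regulator of interferon genes, differed by -1.23 ± 0.08, the NF-kB cofactor gene Nfkbiz by -1.06 ± 0.10 and Zfp36, whose protein destabilises cytokine mRNAs, by -1.07 ± 0.06. Tnfaip3, an NF-kB inhibitor, was the 1 that rose in AKR cells, by 1.37 ± 0.08, and its response was lower in DBA/2 cells (-1.24 ± 0.11). Between the strains, 9 of the list were higher and 2 lower in loaded DBA/2 cells and 9 higher and 1 lower in unloaded ones (15.1% and 14.3% of all genes higher), and Il1b was higher by 2.91 ± 0.11 after loading and 2.48 ± 0.11 before it.

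In experiment 2, 0 inducers and repressors rose and 7 fell with loading in DBA/2 cells (list median -0.68; 3.74% of all genes fell). The differences were -2.55 ± 0.25 for Il1b, -2.88 ± 0.65 for Irf7 and -1.27 ± 0.31 for Irf1. They were -1.89 ± 0.30 for Stat2, which carries the interferon signal, -1.80 ± 0.21 for Nfkbiz and -1.48 ± 0.16 for the NF-kB subunit gene Relb. The responses of Il1b and Relb were lower in DBA/2 than in AKR cells, at -2.02 ± 0.35 for Il1b and -1.31 ± 0.23 for Relb. Between unloaded DBA/2 and AKR cells 5 of the list were higher and 1 lower (4.96% of all genes higher), with Il1b at 1.58 ± 0.25, Nfkbiz at 1.72 ± 0.21, Stat2 at 1.27 ± 0.30 and the NF-kB subunit gene Nfkb2 at -1.41 ± 0.15. Without the discordant arrays 9 were higher and 2 lower in that comparison (7.01% of all genes higher). In AKR cells 0 were called for loading with all arrays, beside 0% of all genes. Without the discordant arrays 1 rose in AKR cells (Tnfaip3, 1.61 ± 0.13) and 10 fell (9.63% of all genes fell). Those that fell included Irf7 (-2.98 ± 0.23), Il10 (-1.70 ± 0.21), Irf1 (-1.52 ± 0.11), Irf9 (-1.26 ± 0.13) and Stat2 (-1.24 ± 0.17). The same fit gave the same counts in DBA/2 cells. There 1 rose (Tnfaip3, 1.27 ± 0.11) and 10 fell (8.63% of all genes fell), with Il10 at -1.75 ± 0.18.

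The genes most like each member were sought among 7172 tested in both experiments, by the lower of the Pearson correlations over the 16 arrays of each experiment. Arrays of a group share strain and treatment, so these values are descriptions. Cxcl14 was most like Bdh2 (r = 0.985 in experiment 1 and 0.987 in experiment 2), Irf5 (0.966 and 0.967) and Adam8 (0.953 and 0.971). Cxcl1 and Cxcl2 were each the gene most like the other (0.946 and 0.904). Cxcl1 came next to Vegfa (0.880 and 0.919), an angiogenic factor gene, and to the urokinase receptor gene Plaur (0.839 and 0.824). Cxcl2 came next to Plaur (0.871 and 0.883) and Mrps10 (0.870 and 0.858). The values were lower for Cxcr4, at 0.664 and 0.802 for Cyp4v3, 0.810 and 0.661 for Rhob and 0.615 and 0.748 for Gzf1. For Cx3cr1 they were 0.566 and 0.561 for Tmem178, 0.754 and 0.560 for Ginm1 and 0.718 and 0.541 for Pon3.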

How the data were processed

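The authors deposited log2 values of Illumina bead arrays, quantile-normalized in each experiment per their methods (lumi 2.6.0 in the processing notes), in 1 table an experiment. The 4 arrays a group limit the precision. Probe names came from platform annotation: 20984 of 24613 probes in experiment 1 and 23978 of 25697 in experiment 2 had 1 gene symbol. limma 3.58.1 in R 4.3.3 fitted the 4 group means over the 16 arrays of an experiment, with default eBayes and Benjamini-Hochberg adjustment over the 13339 and 13732 probes kept (9312 and 9356 genes). A gene was read from its brightest kept probe. The fit was tested on simulated data. The 9 members and all lists were chosen with earlier results of these data known. The naming rule took all 9 members, the 3 genes most like each, and list genes called with an absolute log2 difference of at least 1 in some comparison. Lists covered CC ligands, other CXC ligands, other receptors, receptor signalling, inducers and repressors, and markers of 9 cell types. Alternatives were the dim-probe filter, an offset of 50, trended robust eBayes, a replicate block, fits on 2 groups, array weights, each array left out and, added after seeing the data, the 2 discordant AKR arrays left out. The authors' removal of probes over strain variants was not repeated, so a strain difference of a single probe can include unequal binding. Arrays were hybridized several to a chip, and the chip of each array is not given in the sources used here. Figures were drawn with matplotlib 3.10.9.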

Additional observations from a re-analysis of the deposited data

Results flagged for a closer look

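Single arrays stood apart from the other 3 of their group, by the gap to the nearest array as a share of the group's range, in 7 of the 80 groups of 4 values tested, counting each probe of a member in each group. Chance gives such a gap in about 1 in 20 groups, and the probes of an array share its RNA. In experiment 2, 4 of the 7 were in loaded AKR replicate 2, one of the 2 discordant arrays: Cxcl1 read 5.65 there against 7.71 to 8.07 in the others, Cxcl2 read 4.95 against 6.80 to 7.08, Cxcl14 read 4.60 against 5.02 to 5.09, and Cxcr4 read 9.86 against 9.44 to 9.48. Cxcl14 also read 6.53 in unloaded DBA/2 replicate 3 of experiment 2 (6.29 to 6.30 in the others) and 6.84 in unloaded DBA/2 replicate 2 of experiment 1 (6.91 to 6.93). Its other probe read 6.69 in unloaded DBA/2 replicate 3 of experiment 1 (6.50 to 6.53).

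The response of Cxcl14 to loading differed between the strains by the interaction test of limma in both experiments. It was greater in DBA/2 than in AKR cells by 1.66 in experiment 1 and by 2.27 in experiment 2. In experiment 1 all 8 AKR arrays lay below the median of all probes, where a response may not be measurable.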

How the results depend on the processing

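No result changed sign as a called value under any alternative. In experiment 1 the members called for loading in DBA/2 cells numbered 1, and 2 with a replicate block, with only the groups compared or with array weights, Cxcl2 being the addition. In experiment 2, testing all probes gave 694 probes called for loading in DBA/2 cells (1077 with the filter) and 64 for the difference in response (112 with the filter), and an offset of 50 gave 191 for that difference. With only the groups compared, 1 member was called between unloaded strains (Cxcr4 lost, adjusted p = 0.0131) and 2073 probes for loading in DBA/2 cells. With array weights, 2 members and 2903 probes (1659 unweighted) were called between loaded strains, 3 and 2240 for loading in AKR cells (0 and 0 unweighted), 2341 probes for loading in DBA/2 cells and 461 for the difference in response. Without the 2 discordant AKR arrays, a choice made after seeing the data, the counts were 2 and 2669 between loaded strains, 3 and 2557 for loading in AKR cells, 2494 probes for loading in DBA/2 cells, and 2 and 711 for the difference in response.

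Leaving out 1 array at a time in experiment 1 gave 3 to 4 members and 3253 to 3857 probes between unloaded strains, 3 to 4 and 3419 to 3939 between loaded strains, 0 to 2 and 3493 to 4082 for loading in AKR cells, 1 to 2 and 1256 to 1684 for loading in DBA/2 cells, and 1 to 2 and 1672 to 1980 for the difference in response. The additions in that last comparison were Cxcr4 without unloaded AKR replicate 2 (-0.46, adjusted p = 0.00643) and Cxcl1 without unloaded AKR replicate 3 (0.40, adjusted p = 0.00836). In experiment 2 the ranges were 1 to 2 and 1008 to 1648, 1 to 2 and 1233 to 1973, 0 to 0 and 0 to 0, 2 to 2 and 633 to 1620, and 1 to 1 and 65 to 168, in the same order of comparisons.

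Replicate numbers did not pair the arrays over all groups: same-numbered arrays of different groups had deviations correlated above 0.1 in 9 of 24 pairs of experiment 1 (0.0109 to 0.157) and in 12 of 24 of experiment 2 (-0.295 to 0.521). All 4 pairs exceeded 0.1 only between unloaded DBA/2 and AKR cells of experiment 2 (0.105 to 0.170), where the block gave 1415 probes (1359 without it) and the same count of 2 members. With the replicate block, 3937, 4014, 4205, 1785 and 2118 probes were called in experiment 1 and 1415, 1745, 0, 1255 and 129 in experiment 2, in the same order, with 4, 4, 0, 2 and 1 members in experiment 1 and 2, 1, 0, 2 and 1 in experiment 2. The block added Cxcr4 between unloaded strains of experiment 1 (adjusted p = 0.00961), as did trended robust eBayes (adjusted p = 0.00966). Dim members at or below the median of all probes have little room for a difference above background. By group means these were Ccr2 in both experiments, Ccr1 in experiment 2, and Cxcl9 and Cxcl10 in experiment 1. Cxcl14 was among them in AKR cells of experiment 1, and in unloaded AKR cells of experiment 2 without the discordant arrays. Ccr1 in experiment 1 and Cxcl9 and Cxcl10 in experiment 2 passed the median by little, as did the highest group mean of Cx3cr1 in both experiments. The causes of these changes were not tested.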
